A study of Mus musculus with 18 samples.

Results

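The ribosomal DNA stretch on chromosome 17 is a 5639 bp piece of the mouse assembly (NCBIM37, chr17:39980018-39985654 and 1 base more at either end) that holds part of a ribosomal RNA gene. All cytosine positions listed between these 2 coordinates were taken, which gave 1160 positions over the 18 libraries. Of these, 1150 were the 2 strands of 575 CpGs, which is every CpG of the reference there, and the other 10 positions lay outside a CpG and held 97 calls, 3 of them methylated. The reference genome holds 21342779 CpGs in all. The stretch was chosen by position and for its depth, not by its methylation, so its methylation levels could be tested. Its depth is given as a description, and for depth only a difference between genotypes was tested. Members, parts and lists within the stretch were chosen with earlier results of these data known.

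Whole-genome bisulfite sequencing, in which unmethylated cytosines are converted and methylated ones are not, was read in mouse embryonic stem cells (ESCs). There were 9 control libraries, which the labels call wild type, and 9 Dnmt1 KO libraries, in which the gene of the maintenance DNA methyltransferase had been removed by Cre recombinase induced with tamoxifen. The sampling days were 1, 3, 6, 9 and 11. Each genotype had 2 libraries a day, and 1 on day 6. The labels gave E14 as the background of all 18 libraries while the methods described floxed C57BL/6 cells grown in serum with LIF. These sources did not settle whether control and Dnmt1 KO cells were of the same line. A difference between genotypes can therefore include one between lines. Nothing said that the replicates came from separate cultures, so p-values measure the spread between these libraries, which may be technical. For single CpGs the spread used was shared over all CpGs tested and close to counting error, so their p-values measure little more than that.

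Ribosomal RNA genes are present in long tandem arrays on several mouse chromosomes, and each unit is transcribed by RNA polymerase I into 1 precursor. The precursor starts with the 5′ external transcribed spacer, goes on with the 18S RNA of the small ribosomal subunit and the first internal transcribed spacer, and further on holds RNAs of the large subunit. The spacers are cut away and degraded. In mammals some copies carry methylated CpGs and are silent while others are unmethylated, and DNMT1 copies methylation onto the new strand at replication. The assembly leaves out the arrays, so reads of many copies can align to the few pieces it does hold, and a level here is a mean over those copies.

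The boundaries of the 18S gene were found on the plus strand by its first letters, TACCTGG, and its last letters, ATCATTA, each of which occurred 1 time in the stretch. The 18S gene then ran over chr17:39983298-39985146, 1849 bp, the same length as the RefSeq gene Rn18s-rs5. The 3281 bp before it belonged to the external spacer and held 368 CpGs, the 18S part held 140 CpGs, and the 509 bp after it belonged to the internal spacer and held 67 CpGs. The G and C content was 69.2%, 55.4% and 70.5% in the 3 parts. GENCODE listed neither rRNA nor spacer there but a pseudogene, AY036118 (ENSMUSG00000045999.8), on the minus strand at chr17:39985048-39985772, whose 4 exons lay over the end of 18S and the internal spacer. The promoter of the unit and the genes of the large subunit RNAs were not in the stretch. The following windows, all from the plus strand of NCBIM37, show where the stretch begins, with its CpGs in capitals, and the 2 borders of the 18S gene, with 18S bases in capitals.
Start of the stretch, chr17:39980007-39980157: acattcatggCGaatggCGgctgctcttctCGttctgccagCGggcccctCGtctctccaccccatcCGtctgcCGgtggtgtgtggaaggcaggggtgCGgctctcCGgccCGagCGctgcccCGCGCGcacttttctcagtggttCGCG
Start of 18S, chr17:39983238-39983357: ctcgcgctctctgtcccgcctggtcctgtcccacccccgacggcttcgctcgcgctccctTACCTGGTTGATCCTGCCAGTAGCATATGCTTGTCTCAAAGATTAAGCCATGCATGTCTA
End of 18S, chr17:39985087-39985206: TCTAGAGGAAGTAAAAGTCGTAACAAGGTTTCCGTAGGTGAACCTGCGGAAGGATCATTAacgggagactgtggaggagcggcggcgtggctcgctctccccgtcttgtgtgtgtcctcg
The first window, whose first 10 bases lie before the stretch, held 16 CpGs in 151 bases, and the windows of 120 bases at the start and the end of 18S held 8 and 10.

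The stretch was deep, which is part of how it was chosen. Libraries held 7190722 to 11158414 calls, where a call is 1 read of 1 cytosine, and a listed cytosine had 1.2 to 1.3 calls on average. In the stretch, a listed cytosine had 8.30 to 21.6 calls on average, and a library had 9356 to 24743 calls in all, 0.116% to 0.247% of its total. The depth fell away at both ends. The last CpG before the stretch (position 39980004) had 8 to 25 calls per library and the first CpG in it 10 to 28, and the last CpG in it (39985654) had 9 to 37 calls and the next one after it (39985669) 10 to 37. Between 501 and 2000 bp outside, the median over libraries was 0.467 calls per CpG on the left and 0.667 on the right, against 31.5 in the stretch. Elsewhere in the assembly, sequence at least 95% identical over at least 100 bp occurred at 3 places, the longest of them 908 bp of the 18S gene on chromosome 6 at 98.02% identity, and together they covered 24.6% of the stretch. It was not alone in being deep. Of 1416 CpGs with at least 10 calls in every library, 432 lay in the stretch, while chromosome 9 held 488, the mitochondrial genome 233 and chromosome 2 held 62. How many reads were lost because they aligned to more than 1 such place was not tested.

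Methylation of the stretch was low in control ESCs and fell further in Dnmt1 KO cells. In control libraries it was 5.57% and 5.27% on day 1, 5.20% and 4.31% on day 3, 5.804% on day 6, 6.21% and 6.18% on day 9, and 5.81% and 4.69% on day 11. In Dnmt1 KO libraries it was 5.47% and 4.33% on day 1, 3.23% and 2.83% on day 3, 1.83% on day 6, 1.89% and 3.82% on day 9, and 1.82% and 2.34% on day 11. The genotypes overlapped on day 1 and were apart on days 3, 6, 9 and 11, where the lowest control library lay 1.09, 3.97, 2.36 and 2.35 percentage points above the highest Dnmt1 KO library.

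Averaged over the 5 days, Dnmt1 KO libraries were at 2.94% and control libraries at 5.49%, a difference of -2.55 percentage points (9 libraries each, exact permutation of genotype within days, two-sided p = 0.00154, adjusted over 5 tests 0.00257). Within a single day, an exact permutation of 2 libraries against 2 cannot give a p below 0.333, so the level of the whole stretch was not tested for a day alone. The mean difference was -0.524 percentage points on day 1, -1.73 on day 3, -3.97 on day 6, -3.34 on day 9 and -3.17 on day 11. The difference on day 1 was smaller than the gap of 1.14 points between the 2 Dnmt1 KO replicates of that day. The later days' mean difference, -3.05 points, exceeded that of day 1 by -2.53 points. Permuting genotype within days gave a two-sided p = 0.0525 for this (exact permutation, not among the 5 tests). That permutation takes genotype to have no effect on any day, so it cannot decide whether the difference grew after day 1.

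Within each genotype, day 1 was compared with the later days. Dnmt1 KO libraries were at 4.90% on day 1 and at 2.54% over the 7 later libraries, 2.36 points lower (exact permutation of 2 against 7 libraries, two-sided p = 0.0278, the smallest this design allows, adjusted 0.0347). Control libraries were at 5.42% on day 1 and 5.46% later, a difference of -0.04 points (exact permutation, two-sided p = 0.944, adjusted 0.944). Leaving out either Dnmt1 KO library of day 1 left 1 library against 7 and p = 0.125, the smallest such an exact test allows, with differences of 1.79 points without replicate 1 and 2.93 without replicate 2. Without day 9 the difference was 2.49 points (exact permutation, p = 0.0476, adjusted over 5 tests 0.0595).

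**Figure D1:**
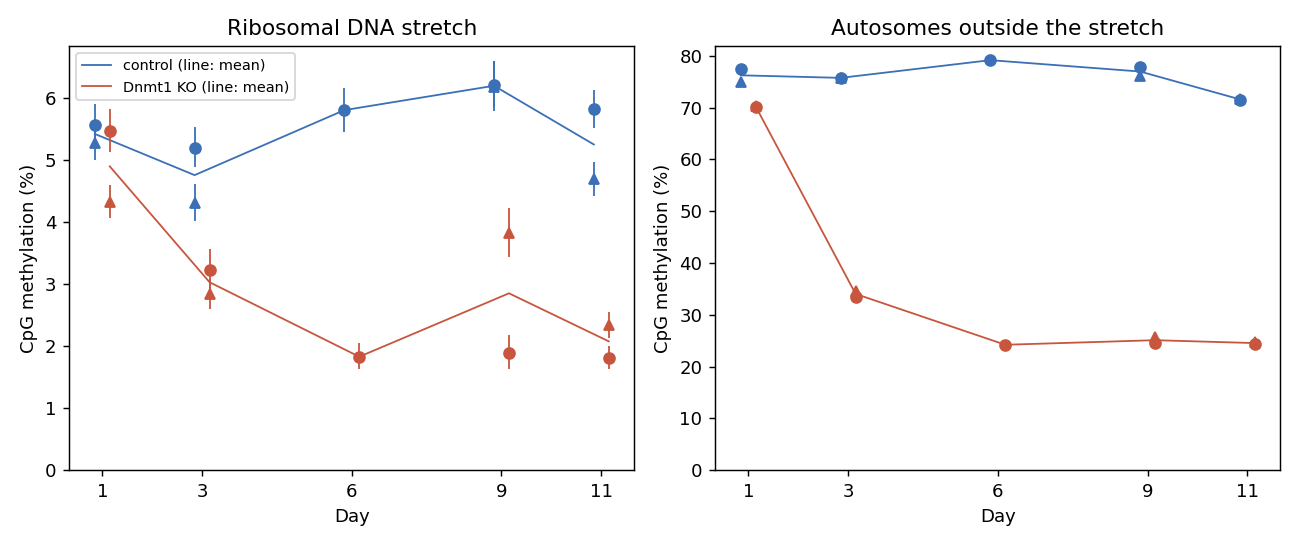
CpG methylation (%) by day in the ribosomal DNA stretch (left) and in the autosomes outside it (right), on axes that both start at 0 but differ in scale, with circles for replicate 1, triangles for replicate 2, lines through the group means and bars on the left for 95% exact intervals. On day 1 the 2 genotypes overlap in the stretch but not in the autosomes, and from day 3 the Dnmt1 KO libraries lie below the control libraries in both panels.

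In 5 of 8 replicate pairs, the 2 libraries differed by more than 2 times the standard error that sampling of calls alone gives, and in the other 3 by less. Exact binomial intervals (95%, Clopper-Pearson) of a library's level were narrow, for example 5.26% to 5.90% for control day 1 replicate 1 and 1.64% to 2.01% for Dnmt1 KO day 11 replicate 1. They cover counting error only, and calls on the same read are not independent. The gap between 2 replicates was 0.129 to 7.97 times that standard error, which takes calls as independent. The largest of these gaps was at Dnmt1 KO day 9, where replicate 2 was 1.93 points above replicate 1 and higher in 10 of 12 tiles of 500 bp. Both Dnmt1 KO libraries of day 9 were the shallowest in the stretch, with 9533 and 9356 calls. The averaged difference between genotypes was -2.74 points without replicate 2 of that group (exact permutation, p = 0.00154) and -2.35 points without day 9 (exact permutation, p = 0.00926).

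The mitochondrial genome, where CpG methylation is taken to be near 0, gave 0.228% to 0.467% methylated calls, a level read as a ceiling for unconverted cytosines of that genome. It was higher on days 9 and 11 in both genotypes, where the group means were 0.422% to 0.440%, than on days 1 and 3, where they were 0.258% to 0.292%. On day 6 the single control library was at 0.403% and the Dnmt1 KO library at 0.277%. Subtracting each library's mitochondrial percent changed the averaged difference between genotypes from -2.55 to -2.53 points. Conversion in the stretch itself, which may differ, was not tested. Its positions outside a CpG gave 3 methylated calls of 97. All 3 were among the 71 calls at 1 position, 39980593, which was listed in all 18 libraries.

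The loss in the stretch was compared with the loss over the autosomes, where levels were far higher. Autosomal CpGs outside the stretch were at 71.6% to 79.2% in the control group means and at 70.2%, 34.03%, 24.2%, 25.1% and 24.5% in Dnmt1 KO on days 1, 3, 6, 9 and 11. As a share of the control level of the same day, the stretch stood at 90.3%, 63.7%, 31.5%, 46.0% and 39.6%, and the autosomes at 92.1%, 44.9%, 30.6%, 32.6% and 34.3%. The share was larger in the stretch than in the autosomes on days 3, 6, 9 and 11, by the least on day 6, and smaller on day 1.

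On the scale of log odds the stretch lost less than the autosomes. The odds of methylation in Dnmt1 KO relative to control were 0.627 in the stretch and 0.165 in the autosomes on day 3, 0.302 and 0.0842 on day 6, 0.418 and 0.100 on day 9, and 0.382 and 0.129 on day 11. The stretch level minus the autosomal level, each as natural log odds, was -2.94 in Dnmt1 KO and -4.01 in control, a difference of 1.06 (9 libraries each, exact permutation within days, two-sided p = 0.000772, the smallest the design allows, adjusted 0.00257). The call rested on the scale. With the natural log of the percent in place of log odds, an alternative chosen after the data were seen, the same difference was 0.16 and did not pass (exact permutation, p = 0.0594).

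Along the stretch, 500 bp tiles were tested in 1 fit with all 567 tiles of the genome that had at least 10 calls in every library. The 567, over which shares are given below, include those of the stretch and 28 mitochondrial tiles. All 12 tiles of the stretch passed that filter, with 348 to 3220 calls per library. The first tile held 1 CpG of 39 outside the stretch, and the last tile 18 of 36. In control libraries, pooled, the tiles lay between 4.28% and 7.70%. Pooled over the 4 latest Dnmt1 KO libraries, of days 9 and 11, they lay between 1.89% and 3.46%.

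More tiles of the stretch were called lower in Dnmt1 KO than in control on days 9 and 11 than on day 3, and none on day 1. At an adjusted p under 0.05 (quasi-binomial test with limma-moderated dispersion), 0 of 12 tiles were lower on day 1, 4 on day 3, 9 on day 6, 10 on day 9 and 10 on day 11, and none was called higher. Day 6 compares 1 library with 1, so its calls, for tiles and for single CpGs, rest on a spread taken from the other days. Among all 567 tiles, 5.64%, 82.2%, 85.2%, 86.9% and 88.7% were called lower on the same days. The count depended on the test. With limma on percents, 1, 4, 6 and 4 of the 12 tiles were called lower on days 3, 6, 9 and 11, against 83.2%, 82.9%, 85.9% and 85.4% of all 567 tiles. On day 1, 6 of 12 tiles had an unadjusted p under 0.05, 5 with the lower and 1 with the higher level in Dnmt1 KO. On that day edgeR's quasi-likelihood test and limma on percents called 0 as well, and a minimum of 20 calls gave 2. The shares of all tiles on day 1 under these settings are not given, so the counts describe the stretch alone. On day 9, leaving out replicate 1 of Dnmt1 KO, which leaves 1 library in that group, lowered the count. On day 1 the count moved without control day 1 replicate 2 and without either Dnmt1 KO library of day 9 or day 11. The shares of all 567 tiles with a library left out are not given, so these shifts describe the stretch alone.

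The 4 tiles called on day 3 lay across the start of 18S and inside it. The tile at chr17:39984501-39985000, inside 18S, was at 1.92% in Dnmt1 KO and 6.08% in control on day 3, lower by 4.16 points with an SE of 0.805 (adjusted p = 0.000186, limma-moderated quasi-binomial test). The tile at chr17:39983501-39984000, also inside 18S, was at 1.58% and 3.87%, a difference of -2.29 points with an SE of 0.684 (same test, adjusted p = 0.00540). The 6 tiles that lay wholly in the external spacer were not called on day 3, with differences of -3.05 to -0.17 points. Whether 18S and spacer tiles differed in the size of this change was not tested.

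By day 11, 10 tiles were called, and 2 were not. The lowest adjusted p, 2.58e-05, was that of the tile across the start of 18S, chr17:39983001-39983500, at 1.98% in Dnmt1 KO and 5.95% in control, a difference of -3.97 points with an SE of 0.618 (limma-moderated quasi-binomial test). The first tile, the highest in control at 7.70%, was at 2.02% against 6.36% on day 11, a difference of -4.34 points with an SE of 1.17. The tiles not called were chr17:39980501-39981000 in the external spacer, at 3.23% against 4.43%, and the last one, chr17:39985501-39986000, at 2.90% against 3.34%. In the last tile Dnmt1 KO was not called lower on any day, and on days 9 and 11 its mean over 4 libraries was 3.72% ± 2.65 (SD) in Dnmt1 KO and 2.89% in the 4 control libraries of those days.

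For the 12 tiles on days 9 and 11 together, the 4 Dnmt1 KO libraries lay wholly below the 4 control libraries in 7, and the ranges overlapped in 5. The tile at chr17:39984001-39984500, inside 18S, had the smallest spread, with 1.97% to 2.47% in Dnmt1 KO and 5.38% to 6.07% in control. The tile at chr17:39985001-39985500, across the end of 18S, had 1.06% to 6.28% in Dnmt1 KO and 4.07% to 6.101% in control, and its highest Dnmt1 KO value came from replicate 2 of day 9.

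**Figure D2:**
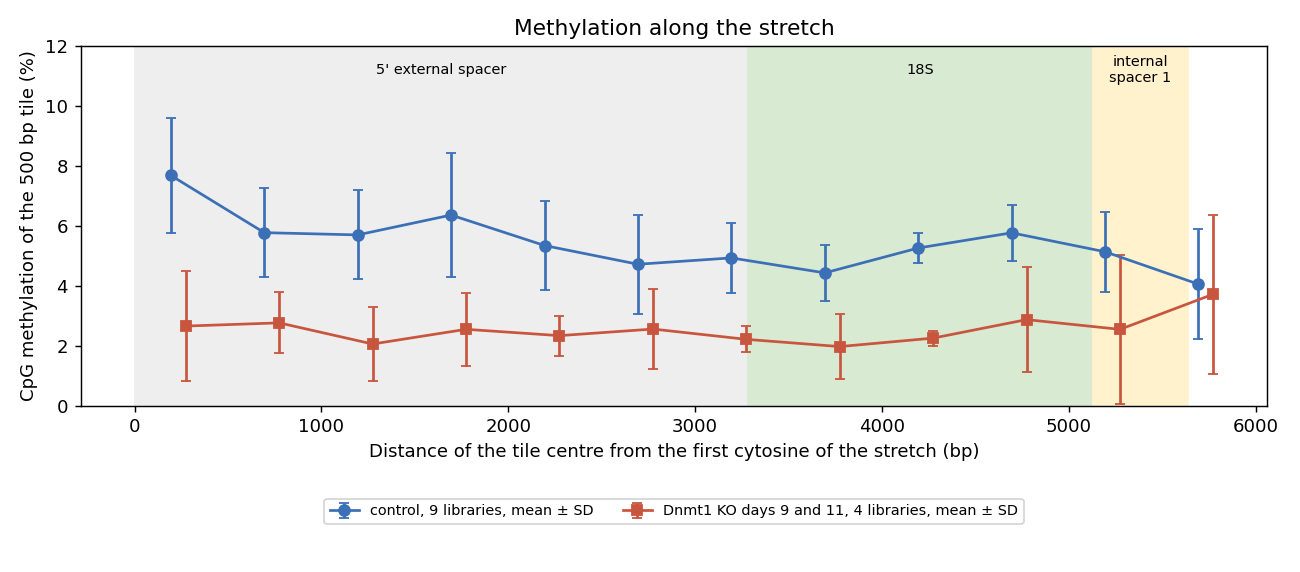
CpG methylation (%) of the 12 tiles of 500 bp against the distance of the tile centre from the first cytosine of the stretch (bp), with shading for the parts of the ribosomal RNA gene, as mean ± SD over 9 control libraries (circles) and over the 4 Dnmt1 KO libraries of days 9 and 11 (squares), the 2 series drawn slightly apart. The Dnmt1 KO means lie below the control means of all days in all 12 tiles, and the 2 come closest in the last tile, at 3.72% and 4.05%. Against the control libraries of days 9 and 11 alone, not drawn, the last tile was higher in Dnmt1 KO, at 3.72% against 2.89%.

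Step by step in Dnmt1 KO, tiles of the stretch were called from day 1 to day 3 and at no later step, except for 1 from day 3 to day 6 when tiles were shifted by 250 bp. From day 1 to day 3, 4 of 12 tiles were called lower, against 80.4% of all 567 tiles. From day 3 to day 6, 0 were called, against 8.99% of all tiles, and from day 6 to day 9 and from day 9 to day 11, 0 were called in the stretch and 0 among all 567 tiles (limma-moderated quasi-binomial test). At these 3 steps, 3, 2 and 1 of the 12 tiles had an unadjusted p under 0.05, and edgeR's quasi-likelihood test and limma on percents called 0 at each. Day 6 had 1 library per genotype, so the steps to and from it rest on a spread taken from the other groups. For these steps, counts at an unadjusted p under 0.05 and by edgeR or limma are not set against all tiles or CpGs tested. Of the 1416 single CpGs deep enough to be tested, 432 lay in the stretch and 233 were mitochondrial. Of the 432, 10 were called lower from day 1 to day 3, against 44.8% of the 1416, and 1 higher, against 0.0706%. From day 3 to day 6, 0 were called lower, against 8.26% (limma-moderated quasi-binomial test), where 3 had an unadjusted p under 0.05, edgeR called 0 and limma on percents 2.

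The 3 parts of the gene were at similar levels in control ESCs. Over the 9 control libraries, the external spacer was at 5.67% ± 0.871 (SD), 18S at 5.24% ± 0.591 and the internal spacer at 4.91% ± 1.41. The internal spacer was also the shallowest part, with 786 to 2159 calls per library, against 3513 to 8632 for 18S. In the same library the external spacer was above 18S in 7 of 9 control libraries and 6 of 9 Dnmt1 KO libraries, with a median of 18S minus external spacer of -0.291 points over all 18, so the order was not the same in every library.

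In Dnmt1 KO cells, the 18S part was at 5.50% and 4.56% on day 1, 2.60% and 2.10% on day 3, 1.18% on day 6, 1.88% and 3.68% on day 9, and 1.84% and 2.02% on day 11. The external spacer was at 5.73% and 4.15% on day 1, 3.53% and 3.29% on day 3, 2.21% on day 6, 1.92% and 3.33% on day 9, and 1.78% and 2.67% on day 11. Both parts were below every control library from day 3 on. The internal spacer was at 2.99% and 4.56% on day 1, 3.99% and 2.86% on day 3, 2.13% on day 6, 1.74% and 7.51% on day 9, and 1.97% and 1.49% on day 11. The 7.51% of day 9 replicate 2 came from 786 calls and was above 8 of the 9 control libraries, which ran from 3.24% to 7.62%.

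Single CpGs of the stretch could be followed because of the depth. Of 575 CpGs, 432 had at least 10 calls in every library (259 in the external spacer, 128 in 18S, 45 in the internal spacer), and they were tested with all 1416 such CpGs of the genome, of which 233 were mitochondrial. Pooled over the 9 control libraries, with 140 to 749 calls each, their levels had a median of 4.96% and quartiles of 3.55% and 6.74%, and ran from 0.467% to 16.6%, with 21 CpGs above 10%. Pooled over the 4 Dnmt1 KO libraries of days 9 and 11, with 57 to 293 calls each, the median was 2.18% and the highest level 8.18%, and 51 CpGs had no methylated call.

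The Dnmt1 KO level was below the control level at 391 of the 432 CpGs, 90.5%, against 97.6% of the 751 other CpGs tested outside the mitochondrial genome. At an adjusted p under 0.05 (limma-moderated quasi-binomial test), 1 CpG was lower on day 1, 15 on day 3, 9 on day 6, 9 on day 9 and 35 on day 11, while 8.33%, 46.3%, 44.8%, 46.5% and 48.5% of all 1416 CpGs were called lower on those days. On day 1, 3 were called higher, against 0.212% of all 1416, and on day 9, 2 were, against 0.353%. The median difference over the 432 CpGs was -0.585 points on day 1 and -1.36, -3.57, -3.10 and -3.01 points on days 3, 6, 9 and 11, against -1.69, -6.47, -11.5, -8.24 and -7.32 over all 1416. The 1416 included these 432 and 233 mitochondrial CpGs, so shares and medians over them are not those of deep nuclear CpGs elsewhere. At the 751 others the median level was 81.9% in control and 35.5% in Dnmt1 KO on days 9 and 11.

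These counts moved with the test and with single libraries. Shares over all 1416 CpGs are not given for counts with a library left out, so those counts describe the stretch alone. In both directions together, 4, 15, 9, 11 and 35 CpGs were called on days 1, 3, 6, 9 and 11. With limma on percents, 31, 42 and 59 were called on days 3, 6 and 9, against 47.4%, 47% and 50.3% of all 1416 CpGs. With dispersion left unmoderated, 3, 2, 0 and 7 were called on days 3, 6, 9 and 11, against 43.3%, 40.6%, 44.4% and 44.8%. On day 11, 63 CpGs were called without control replicate 2, 6 without Dnmt1 KO replicate 1 and 10 without Dnmt1 KO replicate 2. On day 3, 9 were called without Dnmt1 KO replicate 1 and 3 without replicate 2, and on day 9, 2 were called without Dnmt1 KO replicate 2. On day 1, the total of 4 became 0 without control replicate 2 and 1 without any of the other 3 libraries. The 4 CpGs called on day 1, chosen after their values were seen, were at positions 39980180, lower at 1.27% against 17.05%, and 39983054, 39984731 and 39984869, higher at 15.2% against 0%, 11.5% against 2.96% and 11.7% against 2.22% (Dnmt1 KO against control).

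**Figure D3:**
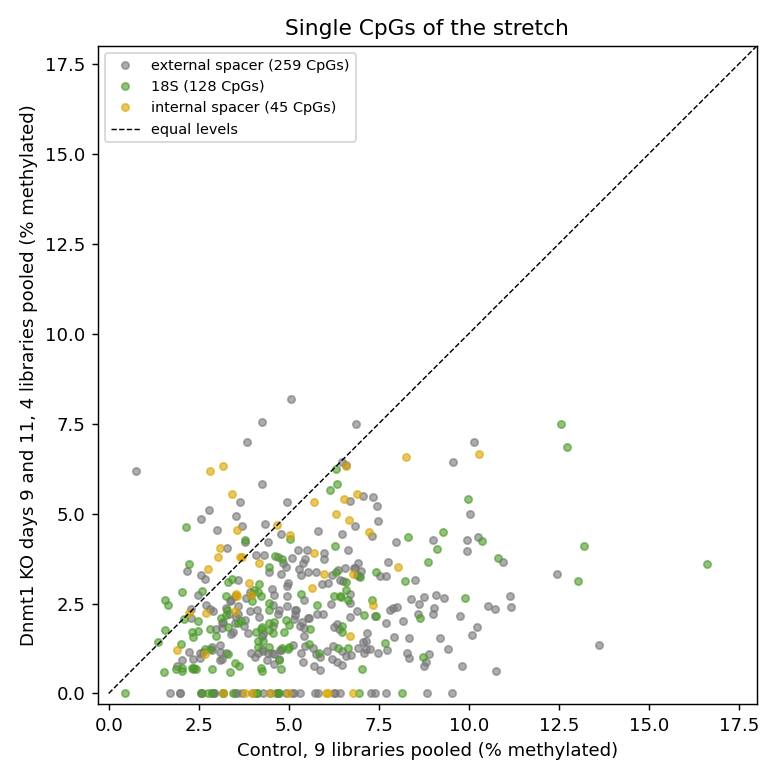
Methylation (%) of the 432 CpGs of the stretch with at least 10 calls in every library, pooled over the 9 control libraries (horizontal) and over the 4 Dnmt1 KO libraries of days 9 and 11 (vertical), on linear axes of the same length, 1 point per CpG and colours for the part of the gene. Most points lie below the line of equal levels, 391 of 432, and no Dnmt1 KO level exceeds 8.18%.

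The differences among CpGs in control cells were partly repeated between libraries. Over the 432 CpGs, the levels of the replicate 1 and the replicate 2 control libraries, each pooled over 4 days, had a Pearson correlation of 0.594 and a Spearman correlation of 0.574. Between control and Dnmt1 KO on days 9 and 11 the Pearson correlation was 0.240, and between Dnmt1 KO day 9 and day 11 it was 0.051. The Dnmt1 KO pools had fewer calls per CpG and lower levels, so counting error lowers their correlations more. Whether the order of CpGs changed in Dnmt1 KO was not tested. These correlations are descriptions over neighbouring CpGs that share reads and depth. The control level had a Pearson correlation of -0.228 with the distance from the start of the stretch, -0.090 with the number of CpGs within 50 bp and 0.069 with the number of calls.

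The 5 CpGs highest in control lay in 18S, apart from 1 in the external spacer. The highest, at position 39983362 near the start of 18S, had 52 of 313 control calls methylated, 16.6% with a 95% interval of 12.7% to 21.2%, and ran from 10.7% to 21.7% over the 9 control libraries with a median of 16.7%. Its Dnmt1 KO values were 0% and 12.5% on day 9 and 2.38% and 3.57% on day 11, so that 1 of the 4 libraries reached the control range. The CpG at 39984410 in 18S was at 13.0% in control, and on day 3 it was at 2.52% in Dnmt1 KO against 16.4% in control. These CpGs were picked by their control level, so their differences between genotypes are a description, with no test.

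The other 3 of the highest CpGs were at positions 39980184 in the external spacer and 39984714 and 39984231 in 18S, at 13.6%, 13.2% and 12.7% in control. On days 9 and 11 in Dnmt1 KO, pooled, they were at 1.34%, 4.10% and 6.85%.

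At the other end, the CpG at position 39984183 in 18S had 2 methylated calls of 428 in control, 0.467% with a 95% interval of 0.0566% to 1.68%, and 0 of 149 in Dnmt1 KO on days 9 and 11, which allows a level of up to 2.01% if a count of 0 is taken to allow 3 calls of the total, a limit for counting error only and not the bound of the 95% interval, which is 2.45%. The next lowest, at 39983275 in the external spacer, was at 0.749% in control and at 6.19% in Dnmt1 KO on days 9 and 11, with 6 of 97 calls methylated. Positions 39983641, 39984017 and 39984101, all in 18S, were at 1.37%, 1.53% and 1.56% in control and at 1.44%, 0.610% and 1.77% in Dnmt1 KO.

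By their Dnmt1 KO level on days 9 and 11, the 3 highest CpGs were all in the external spacer, at positions 39982523, 39982363 and 39983054. They were at 8.18%, 7.55% and 7.50%, from 110, 106 and 80 calls, against 5.05%, 4.26% and 6.87% in control. The first was at 16.7% and 6.67% on day 9 and 2.17% and 12.9% on day 11, which overlapped the control range of 0% to 15%. At the low end 51 CpGs shared a level of 0%. The 3 of them with the most calls, at 39983999, 39984015 and 39983783 in 18S, had 0 methylated calls of 174, 165 and 163, which by the same limit of 3 calls allow levels of up to 1.72%, 1.82% and 1.84%. In control they were at 4.73%, 3.45% and 6.96%, and all 4 Dnmt1 KO libraries were at 0% at each of them. They were picked by their level and depth, so no test is given. In these 4 libraries 18S was deeper than the external spacer, with medians of 40.2 and 22.3 calls per CpG. Which part the CpGs of either list lie in is therefore a description.

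The surroundings of the CpGs at the ends of these orders are shown on the plus strand, with the CpG itself in capitals and 75 bases on either side.
Highest in control, chr17:39983287-39983438: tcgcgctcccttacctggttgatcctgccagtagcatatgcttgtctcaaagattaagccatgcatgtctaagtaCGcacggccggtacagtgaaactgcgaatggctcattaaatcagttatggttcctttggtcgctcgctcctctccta
Lowest in control, chr17:39984108-39984259: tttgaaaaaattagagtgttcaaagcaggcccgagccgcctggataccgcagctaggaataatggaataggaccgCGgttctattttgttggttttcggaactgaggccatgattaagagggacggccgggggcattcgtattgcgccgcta
Highest in Dnmt1 KO on days 9 and 11, chr17:39982448-39982599: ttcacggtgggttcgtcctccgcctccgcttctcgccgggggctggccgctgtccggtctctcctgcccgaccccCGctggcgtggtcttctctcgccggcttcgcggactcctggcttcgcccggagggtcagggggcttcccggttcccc
These windows of 152 bases held 8, 11 and 18 CpGs. A T in some copies of the gene counts as an unmethylated call, and the copies were not told apart.

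The share of a library's calls that fell in the stretch also differed between the genotypes. Per 1000000 autosomal CpG calls, control libraries had 2231 and 2527 calls in the stretch on day 1, 2048 and 2022 on day 3, 1792 on day 6, 1708 and 1583 on day 9, and 2364 and 2498 on day 11. Dnmt1 KO libraries had 1874 and 2113 on day 1, 1543 and 1877 on day 3, 1560 on day 6, 1196 and 1342 on day 9, and 2365 and 2281 on day 11. The genotypes were apart on days 1 to 9 and overlapped on day 11.

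The rule that chose the stretch names its position and depth and no genotype, so the difference between genotypes was tested, but not the depth itself. The averaged log2 difference was -0.23 (9 libraries each, exact permutation within days, two-sided p = 0.00154, adjusted over 5 tests 0.00257), and the ratio of Dnmt1 KO to control was 0.838, 0.836, 0.871, 0.770 and 0.956 on days 1, 3, 6, 9 and 11. Days differed by more than genotypes did, since the control mean went from 1645 on day 9 to 2431 on day 11. Chromosome 17 outside the stretch held 3.54% to 3.84% of the autosomal calls in Dnmt1 KO and 3.64% to 3.98% in control libraries. Read length was 50 or 75 bases and is not tied to libraries in the sources used here.

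**Figure D4:**
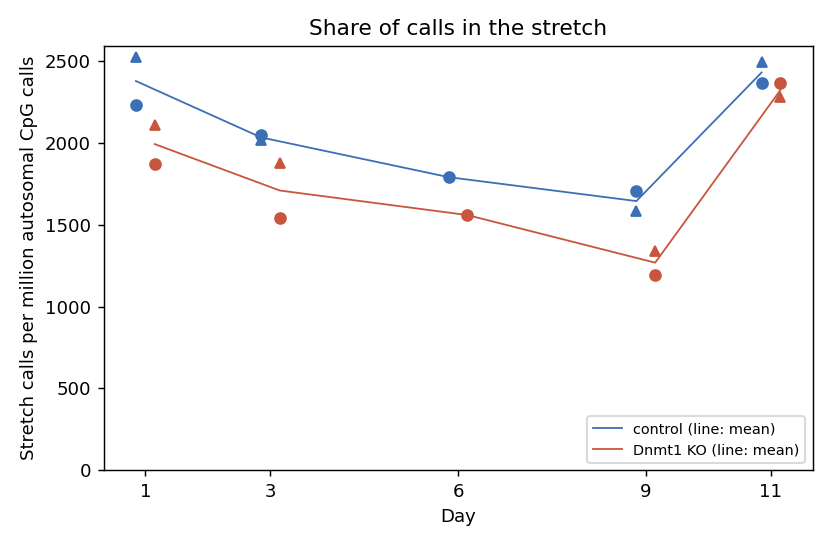
Calls in the stretch per 1000000 autosomal CpG calls, on an axis from 0, by day in control and Dnmt1 KO libraries, with circles for replicate 1, triangles for replicate 2 and lines through the group means. Dnmt1 KO libraries lie below control libraries on days 1 to 9, both genotypes are lowest on day 9, and on day 11 they overlap between 2364 and 2365.

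Low methylation in control cells was shared with few other deep tiles. Of the 527 tested tiles outside the stretch and the mitochondrial genome, 18 had a pooled control level at or below the 7.70% of the highest stretch tile, while the median of the 527 was 75.6%. On days 9 and 11, pooled, the median Dnmt1 KO level was 41.7% of the control level over the 12 stretch tiles, 46.4% over these 18 tiles and 30.5% over all 555 other tested tiles. The 555 include 28 mitochondrial tiles, which the 527 leave out. A tile of the stretch held a median of 1477 calls per library and one of the 18 a median of 149, so the levels of the 18 were less precise, and the shares are given as a description.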

How the data were processed

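The authors trimmed paired reads with Trim Galore, aligned them to NCBIM37 with Bismark (0.12.3 in the submitters' processing notes, another version in the study's methods), removed duplicates and deposited, for each cytosine and strand, a count of methylated calls, a count of unmethylated calls and the percent methylated. The deposited counts were used; the deposited percent was not needed for any result. Duplicate removal by position and alignment to a single copy can limit the depth of a repeated gene. Calls of both strands of a reference CpG were summed over the stretch, its parts, 500 bp tiles and single CpGs. Tiles and CpGs with at least 10 calls in every library entered 1 quasi-binomial fit over all groups with limma-moderated dispersion (limma 3.58.1, R 4.3.3, dispersion floor 1), Benjamini-Hochberg adjusted. Library levels were compared by exact permutation (Python 3.11.15), 5 tests in the family. The fits were also run on simulated data, with larger changes than those of the stretch and a floor on the levels. Those runs do not bear on the calls in the stretch. Other places with the sequence were found with blastn 2.17.0. In stretch tiles the median dispersion was 4.36 before moderation and 2.89 after it, so moderation lowered it. Moderated dispersion had a median of 1.41 in other tiles. For single CpGs the shared value carried all the weight, and moderated dispersion was 1.00 to 1.09 in the stretch, where 1 is counting error alone. Members, parts and lists were chosen with earlier results of these data known. CpGs named were the 5 highest and 5 lowest in control and the 3 highest and 3 lowest in Dnmt1 KO on days 9 and 11, ties at 0% broken by the most calls. Alternatives covered strands, minimum calls, tests, tile borders, scales and single libraries left out.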

Additional observations from a re-analysis of the deposited data

How the results depend on the processing

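Of 5 permutation tests, the averaged difference between genotypes, the share of calls and the fall after day 1 in Dnmt1 KO had an unadjusted p under 0.05 under all alternatives run, except that the last gave p = 0.125 (exact permutation) where a day 1 library was left out, with differences of 1.79 to 2.93 points. Adjusted over the 5 tests, the last did not pass without day 9 (exact permutation, p = 0.0476, adjusted 0.0595). The difference relative to autosomes had an unadjusted p under 0.05 under all but 1, at 0.16 with the log of the percent (exact permutation, p = 0.0594). That setting, the mitochondrial subtraction and leaving out day 9 were chosen after seeing the data. The control difference between day 1 and later days, -0.04, changed sign on the plus strand alone (0.44), after mitochondrial subtraction (0.0644) and without day 9 (0.26), and lay between -0.23 and 0.11 with single libraries left out, the smallest p under any of these being 0.444 (exact permutation).

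Tile counts, genotypes compared, were 1, 4, 6 and 4 on days 3, 6, 9 and 11 with limma on percent, and 2 for the step from day 1 to day 3. A minimum of 20 calls gave 2 on day 1, dispersion without moderation 5 on day 9, and tiles shifted by 250 bp 1 for day 3 to day 6. Leaving out single libraries gave 0 to 2 on day 1 and 6 to 10 on day 9. CpG counts were 2, 31, 42 and 59 on days 1, 3, 6 and 9 with limma on percent, 2, 22 and 19 on days 1, 6 and 9 with edgeR, 0, 3, 2, 0 and 7 on days 1, 3, 6, 9 and 11 without moderation, and 6 and 16 on days 9 and 11 with at least 20 calls. With single libraries left out they ran from 0 to 4, 3 to 18, 2 to 13 and 6 to 63 on days 1, 3, 9 and 11. Shares over all tiles or CpGs are not given here for these settings, so the counts describe the stretch alone. The cause of these shifts was not tested.

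With a replicate block, pairing libraries of the same day and number, tile counts were 0, 4, 9, 6 and 9 and CpG counts 0, 3, 1, 0 and 6 on days 1, 3, 6, 9 and 11. The shares of all tiles and CpGs called under this block are not given, so these counts describe the stretch alone. The permutation tests on pairs gave p = 0.00391 for the level, 0.00391 relative to autosomes and 0.00781 for the share of calls (exact sign permutation). The deviations of same-numbered libraries from their group means had correlations of -0.046 to 0.031 over all 567 tiles on the 4 days with 2 replicates, and of 0.449, -0.038, -0.032 and 0.235 over the 12 stretch tiles on days 1, 3, 9 and 11. Not every pair was above 0.1, so the numbers were not taken as pairing the libraries. Day 6, with 1 library per genotype, and library medians of 15 to 41 calls per CpG limit what single CpGs can show.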

Other observations

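The 2 strands gave slightly different levels. The plus strand, which carries the letters of the rRNA, was above the minus strand in 9 of 9 Dnmt1 KO libraries, by a median of 0.489 percentage points, and in 5 of 9 control libraries, by a median of 0.311. It held 3865 to 10926 calls per library, against 5417 to 13817 on the minus strand. In control libraries, CpGs followed by G were at 6.11% (148 CpGs, pooled), those followed by C at 5.43%, by T at 5.11% and by A at 4.51%. In Dnmt1 KO on days 9 and 11 the levels were 2.66%, 1.99%, 2.53% and 2.19%, in another order. These values are descriptions with no test.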
